A study of Homo sapiens with 26 samples.

Results

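The comparison described here set NCCIT cells transfected with siRNA against DNMT3L (siDNMT3L, 2 arrays) against cells transfected with the control siRNA siNTC-1 (2 arrays). It used 4 of the 26 arrays of the series, and 18417 genes were compared. It addresses which transcripts differ when the siRNA against DNMT3L is used alone. A gene was represented by the transcript cluster with exactly 1 gene symbol and, where several clusters carried that symbol, by the one with the highest mean. NCCIT is a human embryonic carcinoma line, and the values are log2 expression values from Affymetrix Human Gene 1.0 ST arrays. Other groups, of 2 arrays each, served for side comparisons. They were siDNMT1, siDNMT3B and siDNMT3A alone, the combinations of siRNAs named 3B+3L, 3A+3L, 3A+3B+3L and 3A+3B, and a second control siRNA, siNTC-2. All cells were of this 1 line and all had been through the same type of transfection, controls included.

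DNA methyltransferases attach methyl groups to cytosine, mostly where it precedes guanine. DNMT3A and DNMT3B methylate unmethylated DNA, DNMT1 copies methylation onto the new strand after replication, and DNMT3L has no catalytic activity but binds DNMT3A and DNMT3B and stimulates them. DNMT3L is made in germ cells and pluripotent cells and is silent in most adult tissues. Embryonic carcinoma cells are tumour counterparts of early pluripotent cells.

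Before the results, the layout of the arrays matters for what siNTC-1 can be compared with. The first principal component over all genes held 49.5% of the variance and set the 8 arrays of siDNMT3L, siDNMT1, siDNMT3B and siNTC-1 (between -26.6 and -23.3) apart from the other 18 (between 3.40 and 20.2). The second held 10.4% and placed siDNMT3L at 0.40 and 0.46 and the siDNMT1 and siDNMT3B arrays between 0.06 and 2.45, while siNTC-1 lay at -13.5 and -14.1. siNTC-2 differed from siNTC-1 at 8234 genes (44.7%), and no label names a batch, so siNTC-1 was the control on the same side of the first component. Duplicates correlated at 0.998 for siDNMT3L and 0.997 for siNTC-1 across genes. No label says whether duplicates came from separate cultures, so p-values here reflect only how far duplicates differ, perhaps for technical reasons, and 2 arrays a group give limited precision. Of the embryonic carcinoma markers with a usable cluster, SOX2, LIN28A, SALL4, L1TD1 and DPPA4 had log2 values between 10.7 and 12.4 on these 4 arrays.

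DNMT3L itself was low and fell by a modest amount. Its log2 values were 5.45 and 5.48 in siDNMT3L, against 5.76 and 6.17 in siNTC-1. The groups did not overlap, and 1 siNTC-1 array was clearly above the other. The difference of -0.50 ± 0.12 (SE) passed the test (limma, adjusted p = 0.00518) and left 70.6% of the siNTC-1 level on the array's compressed scale. Without siNTC-1 replicate 2 it was only -0.30. The difference missed the threshold in a limma model of only the 2 groups (adjusted p = 0.101). It also missed it in a limma model of siNTC-1, siDNMT1, siDNMT3B and siDNMT3L (adjusted p = 0.0505). DNMT3L was also low in cells that had received other siRNAs. It stood at 5.47 and 5.66 in siDNMT1 and at 5.66 and 5.65 in siDNMT3B. siDNMT3L minus siDNMT1 was -0.10 ± 0.12 (SE, adjusted p = 0.63) and siDNMT3L minus siDNMT3B was -0.19 ± 0.12 (SE, adjusted p = 0.36), and neither passed the test. The siDNMT3L arrays overlapped those of siDNMT1 and lay below both siDNMT3B arrays.

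DNMT3L also fell where its siRNA was added to others. It had 5.51 and 5.36 in 3A+3L, against 5.95 and 6.14 in siDNMT3A, a difference of -0.61 ± 0.12 (SE, adjusted p = 0.00226). In 3A+3B+3L it had 5.66 and 5.65, against 6.20 and 6.06 in 3A+3B, a difference of -0.48 ± 0.12 (SE, adjusted p = 0.0122). In both pairs the arrays did not overlap, and the interaction terms, 0.11 (adjusted p = 0.753) and -0.02 (adjusted p = 0.953), did not pass the test. The other methyltransferase transcripts showed no difference past the threshold in siDNMT3L against siNTC-1. DNMT1 differed by -0.10 (adjusted p = 0.24), DNMT3A by 0.03 (adjusted p = 0.81) and DNMT3B by 0.12 (adjusted p = 0.18), with overlapping arrays in each case. These results depended on the control. DNMT3A and DNMT3B were higher and passed the threshold with siNTC-2 as the control, and DNMT3B also with the mean of both controls.

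**Figure D1:**
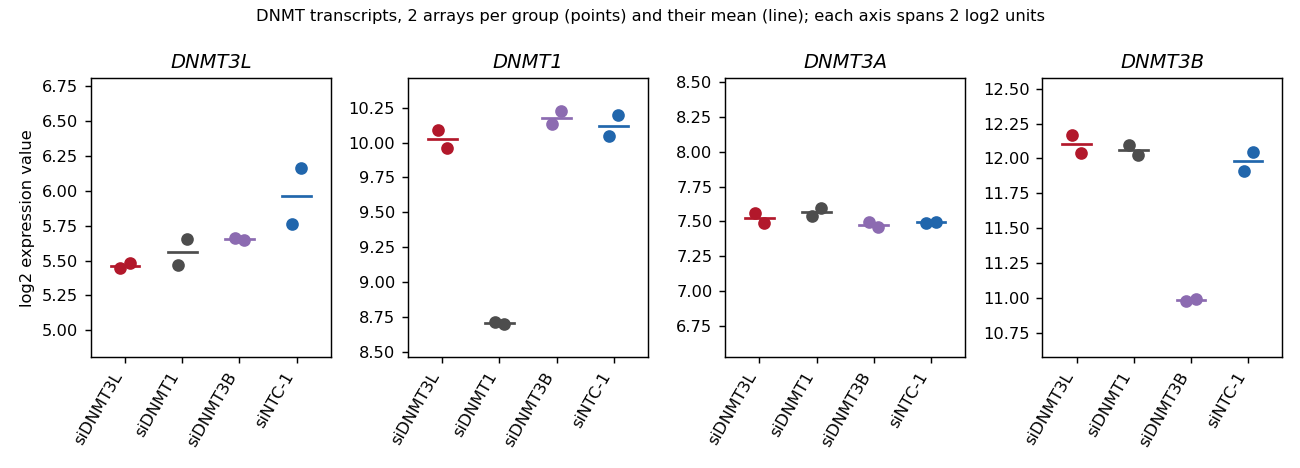
Log2 expression values of the 4 DNMT transcripts (vertical axes, each spanning 2 log2 units) in siDNMT3L, siDNMT1, siDNMT3B and siNTC-1. Points are the 2 arrays of a group and lines their mean. DNMT3L lies at 5.45 and 5.48 in siDNMT3L and at 5.76 and 6.17 in siNTC-1, with siDNMT1 and siDNMT3B between 5.47 and 5.66, while DNMT1 and DNMT3B are low in the groups named for them.

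Across all genes, 3532 passed the threshold of an adjusted p of 0.05 in siDNMT3L against siNTC-1 (19.2%), 1716 higher (9.32%) and 1816 lower (9.86%). Most differences were small. At least 1.5-fold was reached by 248 of them (1.35%), 138 higher and 110 lower, and at least 2-fold by 40, of which 20 were higher and 20 lower. In a model of only these 2 groups 569 genes passed the threshold, 227 of them by at least 1.5-fold. The calls lay mostly among well expressed genes. When genes were put into 4 equal classes of mean level, 764 of 4604 were higher in the highest class (16.6%), against 52 of 4605 in the lowest (1.13%). Both siDNMT3L arrays lay above both siNTC-1 arrays at 4282 genes (23.3%) and below them at 5337 (29%), so arrays that do not overlap are common and are given below as a description.

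**Figure D2:**
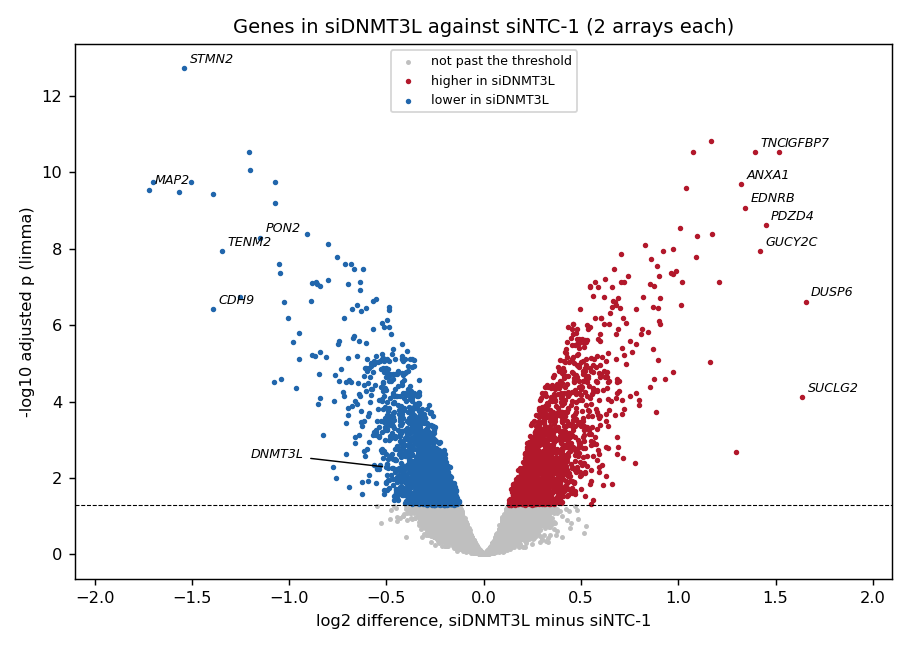
Each point is 1 of 18417 genes, with the log2 difference of siDNMT3L minus siNTC-1 on the horizontal axis and -log10 of the limma adjusted p on the vertical axis. The dashed line is the threshold of 0.05. DNMT3L, at -0.50, lies far inside the range of the genes with the largest changes, such as DUSP6 at 1.65 and MAP2 at -1.72.

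The 15 largest rises included genes of growth factor signalling, the cell surface and the matrix. DUSP6, the phosphatase that inactivates ERK, had 7.40 and 7.37 in siDNMT3L, against 5.54 and 5.92 in siNTC-1. It rose 3.15-fold (log2 difference 1.65 ± 0.14 SE, adjusted p = 2.43e-07). IGFBP7, a secreted protein that binds insulin-like growth factors, had 8.41 and 8.30 in siDNMT3L, against 6.85 and 6.83 in siNTC-1, and rose 2.86-fold. Both siDNMT3L arrays lay far above both siNTC-1 arrays in each case, and the duplicates of IGFBP7 were nearly equal. GUCY2C, the intestinal receptor for guanylin and bacterial heat-stable toxin, had 7.95 and 7.81 in siDNMT3L, against 6.54 and 6.39 in siNTC-1 (2.67-fold). TNC, which encodes the matrix glycoprotein tenascin C, had 9.37 and 9.42 in siDNMT3L, against 8.04 and 7.97 in siNTC-1 (2.62-fold). EDNRB, an endothelin receptor of neural crest and melanocytes, had 9.42 and 9.33 in siDNMT3L, against 7.95 and 8.11 in siNTC-1 (2.54-fold). These were receptor and matrix genes that were already well above the lowest values of the arrays in control cells.

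ANXA1, a calcium-dependent membrane-binding annexin, had 9.01 and 8.97 in siDNMT3L, against 7.63 and 7.71 in siNTC-1 (2.50-fold). IL17RD, a membrane inhibitor of FGF signalling also known as Sef, had 9.20 and 9.15 in siDNMT3L, against 8.04 and 7.97 in siNTC-1 (2.25-fold). The remaining members of the 15 largest rises were PDZD4, B3GNT5, GNG4, VTRNA1-1, SUCLG2, H2AC14, NFE2L3 and TXNIP, with log2 differences between 1.09 and 1.64. Duplicates of SUCLG2 in siNTC-1 were far apart, at 6.20 and 5.17, and so were those of H2AC14, at 5.48 and 4.83, a histone gene with near-identical copies whose signals may not be separate. With siNTC-2 as the control the differences of SUCLG2, H2AC14, NFE2L3 and TXNIP turned negative (-0.34, -0.16, -0.42 and -2.60). The rises were not particular to siDNMT3L, as all 15 had positive differences from the same siNTC-1 arrays in siDNMT1 and siDNMT3B. IGFBP7 differed by 1.84 in siDNMT1 and 1.58 in siDNMT3B, and PDZD4 by 1.69 and 1.60, more than in siDNMT3L. EDNRB differed by 0.95 and 0.81 and ANXA1 by 0.72 and 0.71, less than in siDNMT3L.

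The 15 largest falls included genes of neurons and of early neural and axial tissue. MAP2, a microtubule-associated protein of neurons, had 7.36 and 7.28 in siDNMT3L, against 9.02 and 9.05 in siNTC-1. It fell 3.29-fold (log2 difference -1.72 ± 0.09 SE, adjusted p = 2.88e-10). PRTG, a surface protein of the immunoglobulin superfamily in early neural and axial tissue, had 7.05 and 6.95 in siDNMT3L, against 8.66 and 8.73 in siNTC-1 (3.24-fold lower). The duplicates of both genes were close together and the groups were well apart. STMN2, a stathmin of growing axons, had 9.26 and 9.27 in siDNMT3L, against 10.76 and 10.85 in siNTC-1 (2.90-fold lower, the smallest adjusted p of all genes at 1.92e-13). MEIS2, a homeodomain partner of HOX and PBX proteins, had 6.53 and 6.44 in siDNMT3L, against 7.99 on both siNTC-1 arrays (2.83-fold lower). OTX2, a homeodomain factor of forebrain and of pluripotent cells leaving the naive state, had 10.13 and 10.25 in siDNMT3L, against 11.40 and 11.39 in siNTC-1 (2.31-fold lower). These 3 were again clear of overlap, and OTX2 and STMN2 were still abundant in siDNMT3L.

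HHIP, which binds and sequesters hedgehog ligands and is itself a hedgehog target, had 5.09 and 5.00 in siDNMT3L, against 6.38 and 6.49 in siNTC-1 (2.62-fold lower). TFAP2A, a factor of surface ectoderm, neural crest and trophoblast, had 11.14 and 11.03 in siDNMT3L, against 12.10 and 12.21 in siNTC-1 (-1.07 on the log2 scale). TDG, the glycosylase that removes oxidised methylcytosine, had 6.43 and 6.40 in siDNMT3L, against 7.41 and 7.58 in siNTC-1 (2.11-fold lower). PON2, an intracellular lactonase of the paraoxonase family, had 8.77 and 8.57 in siDNMT3L, against 9.77 and 9.87 in siNTC-1 (2.22-fold lower). The 15 largest falls were completed by ACTG2, CDH9, TENM2, HAPLN1, FEZ1 and LIPA, with log2 differences between -1.57 and -1.07. With siNTC-2 as the control HAPLN1 was at -0.13, no longer past the threshold. Many of the falls were also found in siDNMT1 and siDNMT3B against the same siNTC-1 arrays. MAP2 differed by -1.03 in siDNMT1 and -2.33 in siDNMT3B, HAPLN1 by -1.34 and -1.73, and PRTG by -0.88 and -1.64. PON2 (-0.11 and -0.05) and TDG (-0.32 and 0.03) were not called in either.

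**Figure D3:**
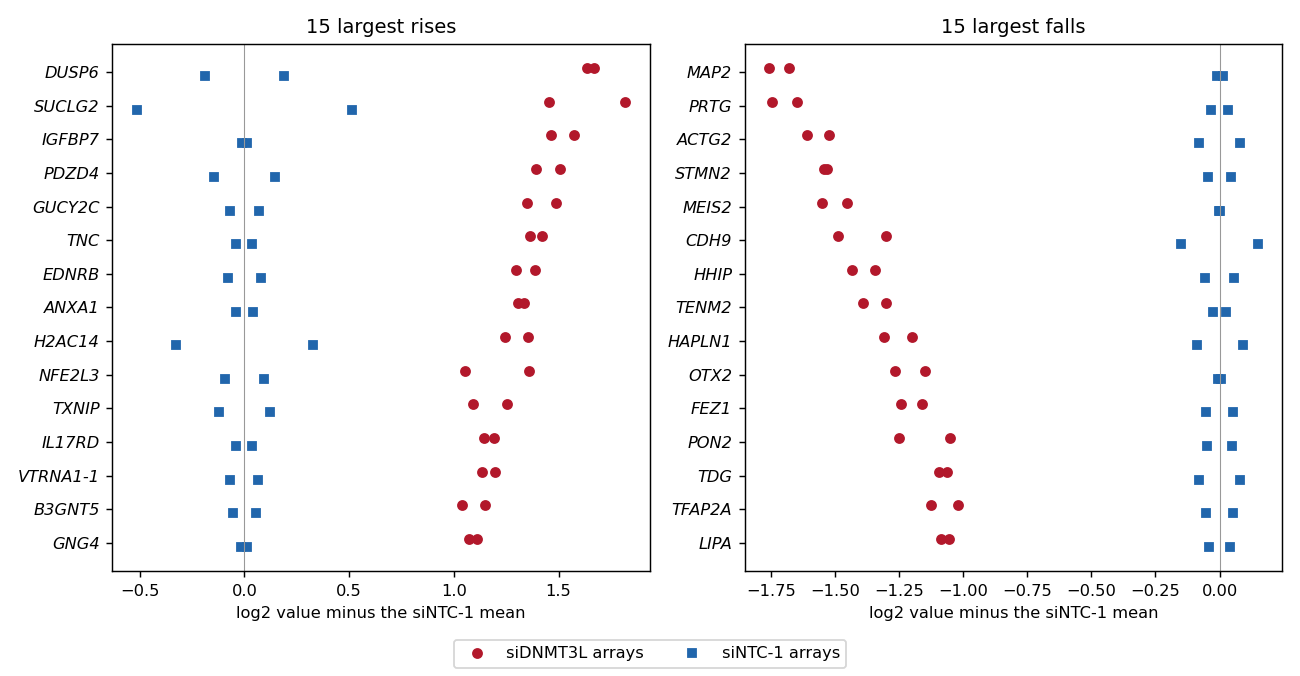
Log2 values of the 15 largest rises (left) and falls (right) after subtraction of the siNTC-1 mean (horizontal axis), with 1 gene per line. Circles are the 2 siDNMT3L arrays and squares the 2 siNTC-1 arrays. In all 30 genes both siDNMT3L arrays lie beyond both siNTC-1 arrays, which the choice of the genes required, and the widest control pairs are those of SUCLG2 and H2AC14.

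Promoters of the genes that moved most ranged widely in CpG content. Counted over the 250 bases before the transcription start, CG pairs numbered 0 in ANXA1 and 34 in HHIP. These promoters are shown as 1 window without CG and 1 rich in CG, in RefSeq sequence of GRCh38.p14 on the plus strand, with each CG in capitals. The ANXA1 window is chr9:73151615-73151864 and the HHIP window chr4:144645906-144646155.
ANXA1: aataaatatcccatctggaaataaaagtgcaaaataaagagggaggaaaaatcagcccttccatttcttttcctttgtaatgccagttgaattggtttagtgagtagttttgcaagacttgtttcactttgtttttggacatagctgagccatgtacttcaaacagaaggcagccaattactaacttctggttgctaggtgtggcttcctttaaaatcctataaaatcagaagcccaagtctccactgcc
HHIP: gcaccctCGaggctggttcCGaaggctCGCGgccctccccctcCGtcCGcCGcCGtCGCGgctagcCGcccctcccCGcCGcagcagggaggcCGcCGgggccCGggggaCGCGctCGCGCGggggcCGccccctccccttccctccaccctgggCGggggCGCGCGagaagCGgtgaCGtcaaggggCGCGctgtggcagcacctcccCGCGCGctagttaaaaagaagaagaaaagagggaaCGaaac
Among the other large rises the count was 16 in DUSP6, 9 in EDNRB, 12 in TNC and 45 in PDZD4. Among the falls it was 4 in MAP2, 27 in PRTG, 26 in MEIS2, 7 in OTX2 and 22 in TDG. Of 35116 RefSeq promoter windows of this length, 93.9% held at least 1 CG. Of the genes compared, 14239 matched a promoter. Among genes above the median level, the median was 22 CG in the 1133 higher genes, 22 in the 1093 lower genes and 22 in the 5330 others. Windows with 5 or fewer CG belonged to 12 of the 80 of these genes that were higher by at least 1.5-fold and to 9 of the 51 that were lower by as much, against 461 of all 7556 (6.10%). Without the restriction on level they belonged to 16 of 108 higher (14.8%) and 18 of 84 lower (21.4%), against 21.7% of all 14239, so the difference is not seen over all genes. The methylation of these windows is not analysed here.

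Many genes of the ERK pathway were higher. FGF4, made by pluripotent cells, activates ERK, and ERK in turn induces phosphatases, Sprouty proteins and ETS factors that restrain or relay the signal. Of 29 listed genes measured, 14 were higher (48.3%) and 2 lower (6.90%). Over all genes 9.32% were higher and 9.86% lower, and the shares of the lists that follow are to be read against these. They are only a rough guide, because calls depended on mean level and the lists were not matched for it. In the highest of the 4 classes of level 16.6% of genes were higher and 15.8% lower, against 1.13% and 4.93% in the lowest. The median log2 difference of the 29 was 0.19, where the median of all genes was -0.02. The ligand FGF4 had 8.57 on both siDNMT3L arrays, against 7.93 and 7.95 in siNTC-1, and rose by 0.63 ± 0.08 (SE, adjusted p = 1.73e-05). Of the receptors, FGFR2 fell by 0.39 and FGFR3 by 0.41 on the log2 scale, while FGFR1 differed by -0.08 (adjusted p = 0.263). The immediate-early genes EGR1 and FOS rose by 0.63 and 0.58. The ETS factors ETV5 and ETV1 rose by 0.42 and 0.48, and SPRY4, a feedback inhibitor, by 0.59. CCND1, cyclin D1, a target of the pathway in G1, had 8.68 on both siDNMT3L arrays, against 7.63 and 7.78 in siNTC-1.

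The ERK genes stood at similar levels in siDNMT1 and siDNMT3B. DUSP6 minus siNTC-1 was 1.65 in siDNMT3L, 1.94 in siDNMT1 and 1.77 in siDNMT3B, comparisons that share the siNTC-1 arrays. Directly against siDNMT1, 1 of the 29 was higher (6.33% of all genes) and 2 lower (6.23% of all genes) in siDNMT3L. Directly against siDNMT3B, 1 was higher (4.95% of all genes) and 4 lower (5.88% of all genes). The choice of control also mattered. With siNTC-2 in place of siNTC-1 the median of the list was -0.03, and ETV5 and SPRY4 turned to -0.60 and -0.86. FGFR1 was then lower and passed the threshold.

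Against siNTC-1, pluripotency genes rose or did not pass the test. Of 18 measured, 8 were higher (44.4%) and 0 lower (median 0.22). GAL, galanin, a neuropeptide abundant in pluripotent cells, had 9.66 and 9.73 in siDNMT3L, against 8.74 and 8.63 in siNTC-1 (2.01-fold). GDF3, a TGF-beta ligand of pluripotent cells, had 12.96 and 12.89 in siDNMT3L, against 12.46 and 12.43 in siNTC-1. DPPA4, a chromatin-associated factor of pluripotent cells, had 11.84 and 11.83 in siDNMT3L, against 11.48 and 11.42 in siNTC-1. Arrays of these 3 genes did not overlap. L1TD1, an RNA-binding protein derived from a LINE-1 element, rose by 0.43. The central factors SOX2 (0.00, adjusted p = 0.99), SALL4 (-0.19, adjusted p = 0.0688) and LIN28A (-0.13, adjusted p = 0.0713) did not move past the threshold. POU5F1 and NANOG were not among the genes compared. The pluripotency median was 0.30 with siNTC-2 as the control. SALL4 was then lower and passed the threshold. SALL4 and LIN28A both passed it, as lower, with the mean of both controls.

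Markers of differentiated tissue went both ways except in the neural list. Of 18 neural markers, 0 were higher and 5 lower (27.8%) with a median of -0.02. Among the lower ones were STMN2, OTX2, MAP2 and NCAM1, an adhesion molecule of neurons that fell by 0.42. The mean log2 level of the neural list, which the large falls of a few members move more than its median, was 6.39 and 6.40 in siDNMT3L, against 6.66 and 6.68 in siNTC-1. The early neural factors PAX6 and SOX1 were near the bottom of the scale on all 4 arrays and differed by 0.07 and 0.06 (adjusted p = 0.682 and 0.656). Endoderm markers had 1 higher and 1 lower of 19 (5.26% each). Mesoderm markers had 2 higher (8.70%) and 4 lower (17.4%) of 23, and trophoblast markers 3 higher (17.6%) and 4 lower (23.5%) of 17. KRT8 and KRT18, keratins of simple epithelia counted here with trophoblast, rose by 0.51 and 0.56. In bulk RNA fewer cells of a type and less RNA per cell cannot be told apart.

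Genes of the hedgehog pathway were lower or not called. Of 16 measured, 0 were higher and 4 lower (25%, median 0.00). Besides the ligand-binding HHIP these were the receptor PTCH1, which had 9.56 and 9.36 in siDNMT3L, against 9.94 and 9.97 in siNTC-1, the transcription factor GLI3, which fell by 0.32, and DISP1, needed for ligand release, which fell by 0.38. HHIP and PTCH1 are both induced by the pathway. GLI1, another induced gene, differed by 0.07 (adjusted p = 0.787). The DISP1 call was lost without siDNMT3L replicate 2 (-0.26) or siNTC-1 replicate 1 (-0.29). With siNTC-2 as the control GLI3 was at 0.03 and GLI1 at -0.37. Wnt regulators went both ways, with 10 higher (27.8%) and 4 lower (11.1%) of 36. SFRP2, a secreted Wnt inhibitor, rose by 0.59 and SHISA3, an antagonist of Wnt receptors, fell by 1.04 on the log2 scale. The retinoic acid list had 2 higher (10.5%) and 3 lower (15.8%) of 19. In it CRABP2, which carries retinoic acid to its receptors, had 6.13 and 5.98 in siDNMT3L, against 7.09 and 7.12 in siNTC-1.

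Matrix and adhesion genes rose more often than they fell. Of 32 genes of the matrix and annexin list, 14 were higher (43.8%) and 3 lower (9.38%), with a median of 0.09. After TNC and ANXA1 came THY1, a surface glycoprotein, with 10.27 and 10.19 in siDNMT3L, against 9.19 and 9.29 in siNTC-1. The basement membrane genes LAMC1 and NID1 rose by 0.70 and 0.76. THBS2, a matricellular inhibitor of angiogenesis, fell by 0.58. NID1 and THBS2 turned to -0.40 and 0.46 with siNTC-2 as the control. Of 22 epithelial adhesion genes, 9 were higher (40.9%) and 0 lower (median 0.12). ITGA6, the laminin-binding integrin chain, rose by 0.57, CD9 by 0.41 and EPCAM by 0.58, while CDH1 (E-cadherin) differed by -0.02 (adjusted p = 0.845). The median of the adhesion list was -0.16 with siNTC-2 as the control. CDH1 was then lower and passed the threshold.

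Metallothioneins, small proteins that bind zinc and copper and are induced through metal response elements by the zinc-sensing factor MTF1, were higher or not called. Of 12 genes in the list, 6 were higher (50%) and 0 lower (median 0.19). MT1X had 11.04 on both siDNMT3L arrays, against 10.06 and 10.25 in siNTC-1, and rose by 0.89 ± 0.06 (SE, adjusted p = 2.77e-08). MT1E rose by 0.58, MT1G by 0.49 and MT1H by 0.38. The genes are close copies, so their probes may share signal. MTF1 itself differed by -0.02 (adjusted p = 0.785), but it was lower and passed the threshold with siNTC-2 as the control. Against siNTC-1, MT1X differed by 0.59 in siDNMT1 and 0.43 in siDNMT3B, and MT1G by 0.79 and 0.28, with the same control arrays. Promoters of MT1X and MT1H are printed to show how densely the core of that element is spaced. They are the 250 bases before the start in RefSeq sequence of GRCh38.p14, plus strand, with matches to the core TGCNCNC on either strand in capitals, at chr16:56682220-56682469 and chr16:56669564-56669813.
MT1X: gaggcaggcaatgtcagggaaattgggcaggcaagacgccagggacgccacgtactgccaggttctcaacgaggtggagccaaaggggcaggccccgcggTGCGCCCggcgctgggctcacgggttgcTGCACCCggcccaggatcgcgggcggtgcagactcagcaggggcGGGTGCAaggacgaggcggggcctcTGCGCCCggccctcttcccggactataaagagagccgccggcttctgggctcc
MT1H: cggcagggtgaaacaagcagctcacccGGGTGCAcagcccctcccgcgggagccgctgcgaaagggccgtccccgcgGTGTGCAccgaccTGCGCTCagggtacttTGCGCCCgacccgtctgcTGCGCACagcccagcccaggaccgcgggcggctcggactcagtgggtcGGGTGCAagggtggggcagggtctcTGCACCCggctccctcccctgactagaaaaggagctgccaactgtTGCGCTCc
The MT1X window held 4 matches and the MT1H window 8. At least 4 were found in 1.77% of all 35116 windows of this length, and at least 1 in 49.1%. MT2A, whose window held 7, had 11.78 and 11.82 in siDNMT3L, against 11.54 and 11.65 in siNTC-1, and its small difference of 0.20 (adjusted p = 0.0432) no longer passed the threshold when any one of siDNMT3L replicate 1, siDNMT3L replicate 2 and siNTC-1 replicate 1 was left out.

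Stress-response genes were more often lower than higher. The integrated stress response slows translation and, through ATF4, induces genes of amino acid supply. Of 34 genes in its list, 2 were higher (5.88%) and 17 lower (50%), with a median of -0.24. WARS1, a tRNA synthetase, had 10.34 and 10.29 in siDNMT3L, against 10.81 and 10.80 in siNTC-1. SLC6A9, a glycine transporter, had 7.20 and 7.15 in siDNMT3L, against 7.73 and 7.77 in siNTC-1. The transcription factor gene DDIT3 (CHOP) fell by 0.37 and the cystine transporter gene SLC7A11 by 0.33, while ATF4 transcript differed by -0.06 (adjusted p = 0.399). The 2 higher members were TXNIP, an inhibitor of thioredoxin and glucose uptake, and VLDLR, a lipoprotein receptor. The median against siNTC-1 was -0.39 in siDNMT1 and -0.22 in siDNMT3B, with the same control arrays. With siNTC-2 as the control the siDNMT3L median was -1.39, and ATF4 was lower and passed the threshold.

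Of 34 DNA replication genes, 1 was higher (2.94%) and 13 lower (38.2%), with a median of -0.11. The helicase subunit gene CDC45 had 8.97 and 8.96 in siDNMT3L, against 9.31 on both siNTC-1 arrays. GINS2 of the same helicase had 10.72 and 10.69 in siDNMT3L, against 11.20 and 11.03 in siNTC-1. The helicase genes MCM5 and MCM6 fell by 0.28 and 0.25. The MCM6 call was lost without siDNMT3L replicate 2 (-0.21) and with siNTC-2 as the control (-0.04). All these falls were under 1.5-fold. The list turned with the control, to a median of 0.22 with siNTC-2, where GINS2 and MCM5 were at 0.29 and 0.33. Mitosis genes had 1 higher (4.17%) and 4 lower (16.7%) of 24.

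Of 7 transcripts of RNA polymerase III, 3 were higher (42.9%) and 0 lower. VTRNA1-1, a vault RNA, had 11.15 and 11.21 in siDNMT3L, against 9.95 and 10.08 in siNTC-1 (2.24-fold). RMRP, the RNA of a ribonuclease that processes ribosomal RNA precursors, rose by 0.47, and RPPH1, the RNA of RNase P, by 0.44. With siNTC-2 as the control RPPH1 turned to -0.94 and RMRP was at 0.08, no longer past the threshold (adjusted p = 0.301). Of 77 H/ACA and Cajal body RNAs, the H/ACA members of which guide pseudouridylation, 22 were higher (28.6%) and 2 lower (2.60%). SCARNA7 had 9.55 and 9.71 in siDNMT3L, against 8.67 and 8.97 in siNTC-1, and SNORA71A rose by 0.60. Of 115 C/D box RNAs, which guide methylation of ribose, 12 were higher and 12 lower (10.4% each), near the shares over all genes. Many of these genes lie in introns of other genes or have near-identical copies, so their signals may not be separate.

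Of 5 hairpin genes of the miR-15/16 family described here, 4 were lower in siDNMT3L and MIR15B was not called. They were chosen after their values were seen. Mature miRNAs were not measured separately. The mature sequences from RefSeq are printed to show what the hairpins share, with bases 2 to 8, the seed that pairs with targets, in capitals.
hsa-miR-15a-5p: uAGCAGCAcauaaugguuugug
hsa-miR-16-5p: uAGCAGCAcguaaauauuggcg
hsa-miR-195-5p: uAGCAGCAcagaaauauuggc
hsa-miR-302b-3p: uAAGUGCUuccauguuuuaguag
The first 3 share 1 seed, and miR-302b, of a cluster abundant in pluripotent cells, has another. MIR15A, on the minus strand of chromosome 13, had 7.01 and 7.30 in siDNMT3L, against 7.92 and 7.39 in siNTC-1 (-0.50, adjusted p = 0.0125). MIR16-2, on chromosome 3, had 6.29 and 6.32 in siDNMT3L, against 7.06 and 6.66 in siNTC-1 (-0.55, adjusted p = 0.00596). MIR195, on chromosome 17, had 4.50 and 4.56 in siDNMT3L, against 4.92 and 4.89 in siNTC-1 (-0.38, adjusted p = 0.00564). Groups did not overlap, but MIR15A and MIR16-2 had wide siNTC-1 duplicates. Without siNTC-1 replicate 1 the difference was -0.23 for MIR15A and -0.35 for MIR16-2, and neither passed the threshold. Nor did MIR15A without siDNMT3L replicate 1 (-0.35). MIR16-1 fell by 0.41, a call lost without siNTC-1 replicate 2 or siDNMT3L replicate 2, and MIR15B, with the same seed, differed by -0.04 (adjusted p = 0.828). DLEU2, the transcript from which MIR15A and MIR16-1 are cut, was higher by 0.38 (adjusted p = 0.0204). MIR302B was higher by 0.44 (adjusted p = 0.00761). The calls of DLEU2 and MIR302B were lost without siNTC-1 replicate 2 (0.25 and 0.30) or siDNMT3L replicate 2 (0.36 and 0.34), and that of DLEU2 also without siDNMT3L replicate 1 (0.39). With siNTC-2 as the control MIR15A turned to 0.71, past the threshold, and MIR15B was at -0.35, also past it. MIR16-1, MIR16-2 and MIR195 were then at -0.13, -0.09 and -0.03, none of these 3 past the threshold. The family's falls thus depended on the control. In all, 12 of 173 miRNA genes were lower (6.94%) and 1 higher (0.578%), both below the shares over all genes. Those shares were not matched for mean level, on which calls depended.

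Within the methylation machinery 2 of 20 genes were higher (10%) and 4 lower (20%). HELLS, a chromatin remodeller needed for methylation of repeats, had 11.13 and 11.10 in siDNMT3L, against 10.56 and 10.57 in siNTC-1. CDCA7, which activates HELLS, had 10.00 and 9.98 in siDNMT3L, against 10.40 and 10.41 in siNTC-1. These partners moved in opposite directions, by 0.55 and -0.42. UHRF1, which brings DNMT1 to replicated DNA, fell by 0.40, but not past the threshold without siNTC-1 replicate 2 (-0.26) or siDNMT3L replicate 2 (-0.27), and it was at 0.09 with siNTC-2 as the control. TET1, which oxidises methylcytosine, differed by -0.04 (adjusted p = 0.557).

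Gene classes that methylation often silences had calls in both directions, except the cancer-testis antigens. The calls are to be read against the 9.32% higher and 9.86% lower over all genes. Of 27 germ cell and piRNA genes 2 were higher and 2 lower (7.41% each), and of 24 cancer-testis antigens 0 and 1 (4.17%). Of 22 meiotic genes 1 was higher (4.55%) and 3 lower (13.6%), and of 31 clustered protocadherins 2 (6.45%) and 1 (3.23%). Of 38 interferon response genes 5 were higher (13.2%) and 4 lower (10.5%). Among 32 imprinted genes 3 were higher (9.38%) and 5 lower (15.6%). PEG10, derived from a retrotransposon and expressed from the paternal allele, had 10.46 and 10.40 in siDNMT3L, against 11.07 and 11.03 in siNTC-1. TFPI2, an inhibitor of serine proteases, was higher, with 6.14 and 6.54 in siDNMT3L, against 5.65 and 5.66 in siNTC-1. Of 7 retroviral envelope genes, ERVMER34-1 rose by 0.64 and ERV3-1 fell by 0.31. The ERV3-1 call was lost without siDNMT3L replicate 2 (-0.17) and with siNTC-2 as the control (-0.15). Zinc finger genes, many of them repressors of retroelements, had 86 of 494 higher (17.4%) and 20 lower (4.05%), with a median of 0.05.

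**Figure D4:**
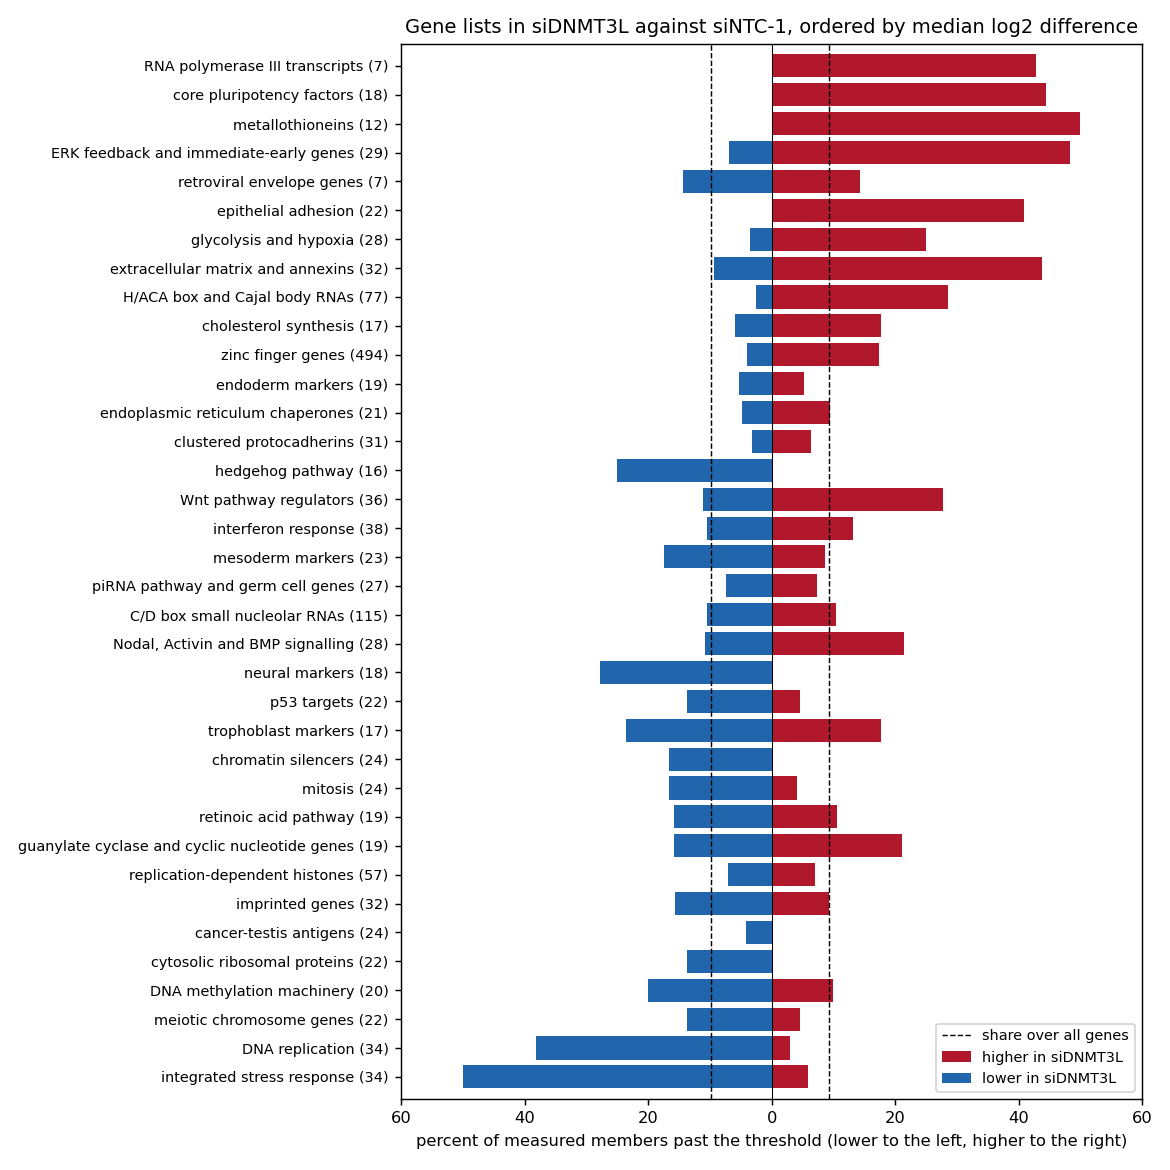
Share of each list's measured members (number in brackets) that passed the threshold in siDNMT3L against siNTC-1, higher to the right and lower to the left, in percent. Dashed lines mark the shares over all genes, 9.32% higher and 9.86% lower. Lists are ordered by median log2 difference, from RNA polymerase III transcripts at the top to the integrated stress response at the bottom.

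In direct comparison siDNMT3L differed from siDNMT1 at 2312 genes (12.6%) and from siDNMT3B at 1993 (10.8%). Genes that passed the threshold in 1 direction against siNTC-1, siDNMT1 and siDNMT3B alike numbered 113 higher (0.614%) and 162 lower (0.88%). These comparisons share the siDNMT3L arrays. STMN2 stood at 9.26 and 9.27 in siDNMT3L, at 10.71 and 10.72 in siDNMT1 and at 9.71 and 9.75 in siDNMT3B. PON2 had 8.77 and 8.57 in siDNMT3L, 9.66 and 9.76 in siDNMT1 and 9.67 and 9.87 in siDNMT3B. TDG had 6.43 and 6.40 in siDNMT3L, 6.93 and 7.43 in siDNMT1 and 7.55 and 7.50 in siDNMT3B. In all 3 genes both siDNMT3L arrays were the lowest, and siDNMT3B minus siNTC-1 was -0.05 for PON2 and 0.03 for TDG. TDG differed by -0.15 in 3A+3L against siDNMT3A and by -0.34 in 3A+3B+3L against 3A+3B, neither past the threshold. STMN2 and PON2 were lower and passed it in both. FEZ1, an adaptor of axonal transport, differed from siDNMT1 by -0.84 and from siDNMT3B by -0.44. MEIS2, PXMP2 (a peroxisomal membrane channel), PLCL2 and MYB completed the 8 largest falls of this kind.

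Germ cell genes, protocadherins and histone genes had more calls in siDNMT3L against siDNMT1 than against siNTC-1. Over all genes 6.33% were higher and 6.23% lower against siDNMT1, and 4.95% and 5.88% against siDNMT3B. Against siNTC-1 the median of the germ cell list was 0.12 in siDNMT1 and -0.01 in siDNMT3L. That of the protocadherins was -0.32 in siDNMT1 and 0.02 in siDNMT3L, and that of the histone genes 0.06 and -0.05. Of 27 germ cell and piRNA genes, 0 were higher and 10 lower in siDNMT3L than in siDNMT1, against 0 and 1 in the comparison with siDNMT3B. MAEL, a protein of the piRNA pathway that represses transposons in germ cells, had 4.47 and 4.60 in siDNMT3L, against 4.69 and 4.53 in siNTC-1, and the groups overlapped. It was lower in siDNMT3L than in siDNMT1 by 1.80 on the log2 scale (adjusted p = 1.33e-08). MAEL was also lower, past the threshold, with siNTC-2 as the control. TDRD1, a tudor protein of the same pathway, differed from siDNMT1 by -0.98 (adjusted p = 1.46e-07) and from siNTC-1 by -0.04 (adjusted p = 0.761). DAZL, a germ cell RNA-binding protein, fell by 0.52 on the log2 scale against siNTC-1, a call lost with siNTC-2 as the control, and differed from siDNMT1 by -0.69 (adjusted p = 0.000358). Of 31 clustered protocadherins, surface proteins that give neurons their identity, 15 were higher and 0 lower in siDNMT3L than in siDNMT1, against 0 and 1 in the comparison with siDNMT3B. Of 57 replication-dependent histone genes, whose near-identical copies may share signal, 1 was higher and 15 lower than in siDNMT1, and 0 were higher and 17 lower than in siDNMT3B.

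Among rises, B3GNT7, a glycosyltransferase of keratan sulphate synthesis, had 7.92 and 7.86 in siDNMT3L, 6.74 and 6.73 in siDNMT1, 7.35 and 7.45 in siDNMT3B and 6.87 and 6.99 in siNTC-1. Its siDNMT1 level was thus the lowest and its siDNMT3L level the highest of the 4 groups. ANXA1 in siDNMT3L exceeded siDNMT1 by 0.60 and siDNMT3B by 0.61. VTRNA1-1 exceeded them by 0.81 and 0.53, and EDNRB by 0.40 and 0.53. EDNRB differed by 0.12 in 3A+3L against siDNMT3A and by -0.05 in 3A+3B+3L against 3A+3B, neither past the threshold. B3GNT7 and ANXA1 were higher and passed it in both, and VTRNA1-1 only in the second. GNG4, GAL, A2ML1 and VLDLR completed the 8 largest rises. PLCL2 and VLDLR turned to 0.04 and -1.02 with siNTC-2 in place of siNTC-1, and GNG4 and PXMP2 lost their calls (0.02 and -0.10).

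The same siRNA could be followed in 2 comparisons that use none of these arrays, its addition to DNMT3A siRNA (3A+3L against siDNMT3A) and to DNMT3A and DNMT3B siRNA (3A+3B+3L against 3A+3B). They called 1863 genes (10.1%) and 1735 genes (9.42%). On the first principal component 3A+3L (4.89 and 8.23) lay apart from siDNMT3A (16.5 and 15.4), and 3A+3B+3L (4.44 and 3.85) from 3A+3B (14.6 and 15.9). Its part in these calls was not tested. With the first, 652 genes were called in the same direction as in siDNMT3L against siNTC-1, or 18.5% of the main comparison's calls and 35.0% of the other's, and 109 were called in opposite directions. With the second these were 524 genes (14.8% and 30.2%) and 163. Of the 248 genes changed at least 1.5-fold, 208 had the same sign in the first and 185 in the second. Fewer were called in that direction, 103 (41.5%) in the first and 98 (39.5%) in the second, and 8 and 11 were called in the opposite one. Over all genes the differences correlated with those of siDNMT3L against siNTC-1 at 0.31 and 0.19 (Pearson). Without siDNMT3A replicate 1 the first made 687 calls and without 3A+3L replicate 1 it made 658.

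Genes called in 1 direction in all 3 numbered 119 higher (0.646%) and 220 lower (1.19%). Against the same siNTC-1 arrays, most of those in the plot were also called in that direction in both siDNMT1 and siDNMT3B. RASL11B differed there by 0.62 and 0.72, TIMP3 by -0.59 and -0.85, and SYN3 by -0.74 and -0.86. B3GNT7, EPCAM, SNORD81 and SEMA6D were called in siDNMT3B but not in siDNMT1, and VSNL1 in neither. Of the 8 falls in the plot HHIP had the largest differences in both combinations, while MEIS2 and CDH9 fell slightly further in siDNMT3L alone. Beside the siDNMT3L values it had 5.35 and 5.31 in 3A+3L, against 7.34 and 7.42 in siDNMT3A, and 5.14 and 5.25 in 3A+3B+3L, against 7.01 and 7.19 in 3A+3B. The differences were -1.39, -2.05 and -1.91, each larger than the spread between duplicates. HHIP was not low wherever DNMT3L siRNA was used, nor only there. It had 6.45 and 6.38 in 3B+3L, and it had 5.06 and 4.99 in siDNMT1. STK32A, a kinase of little known function, had 8.42 and 8.41 in siDNMT3L, against 9.11 and 9.09 in siNTC-1, and differed by -1.09 and -1.21 in the other 2 comparisons. The remaining 6 of the 8 falls were TIMP3, CDH9, SEMA6D, SYN3, ZEB2 and MEIS2. Of the rises, RASL11B, a small GTPase of the RAS family, differed by 0.81, 1.03 and 1.04, with 8.17 and 8.23 in 3A+3L, against 7.21 and 7.13 in siDNMT3A. DUSP6 differed by 1.65, 0.52 and 0.94, GUCY2C by 1.42, 0.64 and 0.69, and EPCAM by 0.58, 0.70 and 0.56. The EPCAM call against siNTC-1 was lost with siNTC-2 as the control. HELLS was called in all 3 as well, at 0.55, 0.37 and 0.38. VSNL1, B3GNT7, B3GNT5 and SNORD81 completed the rises.

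**Figure D5:**
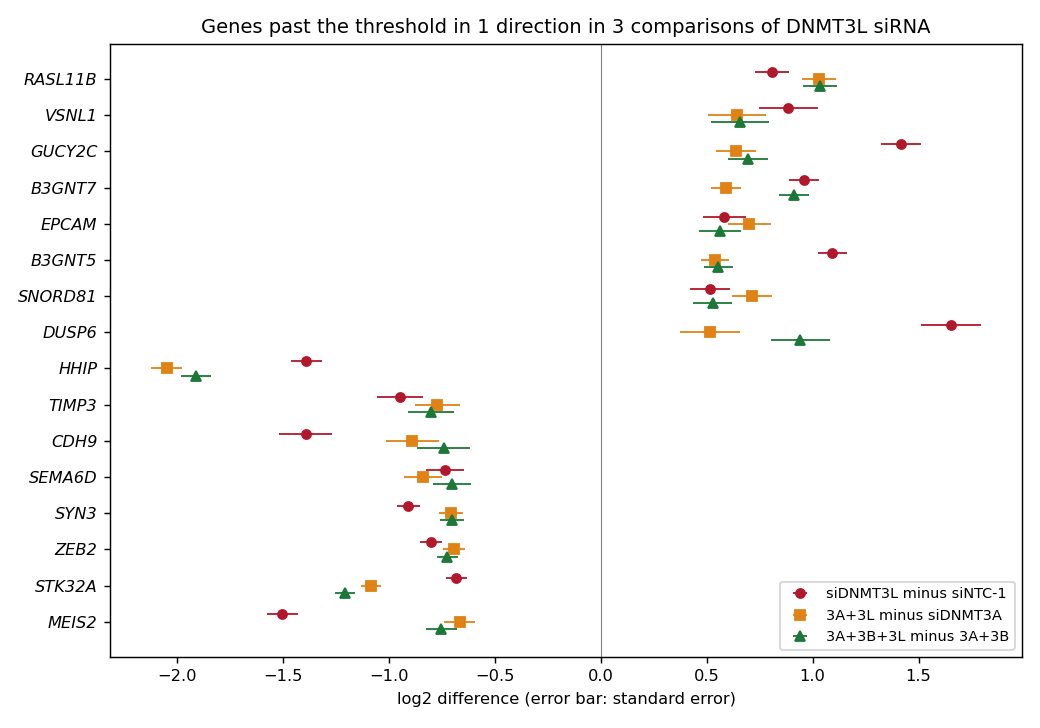
Log2 differences (horizontal axis, error bars are standard errors) of the 8 rises and 8 falls called in 1 direction in siDNMT3L minus siNTC-1 (circles), 3A+3L minus siDNMT3A (squares) and 3A+3B+3L minus 3A+3B (triangles). HHIP and STK32A fall further in the combinations than alone, while GUCY2C and MEIS2 change more alone.

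Some groups behaved otherwise in the combinations. Of the 34 stress-response genes, 32 were lower and 0 higher both in 3A+3L against siDNMT3A (4.07% of all genes higher and 6.04% lower) and in 3A+3B+3L against 3A+3B (3.93% higher and 5.49% lower), with medians of -0.73 and -0.91. DDIT3 differed by -1.20 and -1.44 there, and by -0.37 in siDNMT3L against siNTC-1. SESN2, a stress-induced inhibitor of mTORC1, differed by -1.48 and -1.73 there, and by -0.34 in siDNMT3L, a call lost without siDNMT3L replicate 2 (-0.21). TXNIP went the other way, with a rise of 1.17 in siDNMT3L. It had 10.79 and 10.95 in 3A+3L, against 11.97 and 11.93 in siDNMT3A, and 10.39 and 10.35 in 3A+3B+3L, against 12.04 and 12.10 in 3A+3B. The difference between its effects, for a gene chosen for its rise in siDNMT3L, passed the test (2.26 with adjusted p = 5.14e-10 and 2.88 with adjusted p = 8.22e-12). Across all genes the interaction was called at 1533 (8.32%; 5.19% positive, 3.13% negative) with DNMT3A siRNA and at 2158 (11.7%; 6.45% positive, 5.27% negative) with DNMT3A and DNMT3B siRNA. Of 17 cholesterol synthesis genes 9 were higher in the first combination and 8 in the second, against 3 in siDNMT3L.

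Over the whole series, 5 genes had all 8 arrays with DNMT3L siRNA (siDNMT3L and the combinations that include 3L) beyond all 18 arrays without it, a rule applied after the values were seen. PON2, PXMP2 and FEZ1 were below (0.0163% of genes) and DPPA4 and MAP3K7 above (0.0109%). PON2 had the widest gap, with 8.57 to 9.13 (median 9.06) on the arrays with DNMT3L siRNA, against 9.51 to 9.87 (median 9.68) on the others. The 3B+3L arrays, where HHIP was not low, had 9.05 and 8.91 for PON2. The gap between the nearest arrays was 0.39 for PON2, 0.07 for PXMP2 and 0.02 for FEZ1, DPPA4 and MAP3K7. DNMT3L was not among them, because its siDNMT1 and siDNMT3B values overlapped those of arrays with its own siRNA.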

How the data were processed

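RNA from NCCIT cells was hybridised to Affymetrix Human Gene 1.0 ST arrays, per the labels. The deposited table holds log2 expression values for 33297 transcript clusters on 26 arrays. The log base was inferred from the range of 3.04 to 14.9. Partek is named in the submitters' processing notes without a version, and how it corrected background and normalized the arrays is not given in the sources used here. Array medians lay between 6.28 and 6.33, so the values were not normalized again.

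Of these clusters 19460 carried 1 gene symbol, 1754 several and 12083 none. For the 769 symbols with several clusters the one with the highest mean was kept, leaving 18417 genes. A model of the 13 group means over all 26 arrays was fitted with limma 3.58.1 in R 4.3.3, with 13 residual degrees of freedom and Benjamini-Hochberg adjustment over all genes at a threshold of 0.05. Adjusted p-values are from this limma fit unless another model is named. The fit was tested on simulated data. Groups and replicate numbers came from the sample labels. The correlation of deviations between same-numbered siDNMT3L and siNTC-1 arrays was -0.116, so the numbers were not used as a block.

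The genes named are the 4 DNMT transcripts, the 15 largest rises and falls with arrays that do not overlap, the 8 largest in each direction apart from siDNMT1 and siDNMT3B or shared with both combinations, and list members by adjusted p or by need. Comparisons, members and lists were chosen with earlier results of these data known. Alternatives were other controls, a filter on dim genes, quantile normalization, other variance models, array weights, a replicate block, all clusters of a symbol, fewer groups and leaving out each array. Promoter and miRNA sequences are RefSeq, GRCh38.p14.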

Additional observations from a re-analysis of the deposited data

Results flagged for a closer look

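Among the DNMT transcripts and the 15 largest rises and falls, the effect of DNMT3L siRNA alone (siDNMT3L minus siNTC-1) was set against its effect when added to other siRNAs, and genes are given here where the interaction term of the limma fit passed an adjusted p of 0.05. Values are log2 differences of the effect alone minus the effect in combination. A positive value for a gene that fell alone means a larger fall in the combination. The rises and falls were chosen for their size in siDNMT3L minus siNTC-1, and that choice favours a larger effect alone than in combination, so the counts and signs below describe these genes and support nothing. Over all genes the interaction passed at 8.32% with DNMT3A siRNA and 11.7% with DNMT3A and DNMT3B siRNA.

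Against the effect with DNMT3A siRNA (3A+3L minus siDNMT3A), 28 genes passed. The difference was 2.26 for TXNIP, 1.68 for SUCLG2, 1.32 for NFE2L3, 1.29 for GNG4 and 1.22 for EDNRB. It came to 1.20 for IGFBP7, 1.14 for DUSP6, 1.10 for ANXA1, 1.08 for TNC and 0.96 for PDZD4. Next were values of 0.78 for GUCY2C, 0.77 for VTRNA1-1, 0.70 for IL17RD, 0.66 for HHIP and 0.55 for B3GNT5. Negative differences were -1.34 for PRTG, -1.30 for TENM2, -1.18 for STMN2, -1.09 for MAP2 and -0.96 for HAPLN1. Further negative values were -0.92 for TDG, -0.87 for ACTG2, -0.84 for MEIS2, -0.73 for OTX2 and -0.68 for FEZ1. They were also -0.59 for TFAP2A, -0.52 for PON2 and -0.52 for LIPA. HHIP is the one gene here whose fall was larger in the combination.

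Against the effect with DNMT3A and DNMT3B siRNA (3A+3B+3L minus 3A+3B), 30 genes passed. The difference was 2.88 for TXNIP, 1.84 for SUCLG2, 1.44 for NFE2L3, 1.39 for EDNRB and 1.18 for IGFBP7. It came to 1.08 for GNG4, 0.76 for ANXA1, 0.72 for GUCY2C, 0.71 for DUSP6 and 0.70 for PDZD4. Next were values of 0.63 for IL17RD, 0.60 for VTRNA1-1, 0.57 for TNC, 0.54 for B3GNT5 and 0.52 for HHIP. Negative differences were -1.75 for MAP2, -1.44 for ACTG2, -1.39 for PRTG, -1.37 for HAPLN1 and -1.33 for TENM2. Further negative values were -0.92 for STMN2, -0.75 for MEIS2, -0.74 for TDG, -0.72 for OTX2 and -0.66 for FEZ1. They were also -0.65 for CDH9, -0.58 for PON2, -0.54 for TFAP2A, -0.31 for DNMT3B and -0.30 for LIPA. The DNMT3B value compares cells with and without siRNA against DNMT3B itself.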

How the results depend on the processing

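With siNTC-2 in place of siNTC-1, 8179 genes passed the threshold, 1748 of them by at least 1.5-fold, and 519 of them had been called in the opposite direction against siNTC-1. With the mean of both controls the counts were 6108 and 459. Of the 36 list medians, 21 moved by at least the spread between duplicates with siNTC-2. With the mean of both controls 16 moved, and without the dim genes 12. Most list medians above are given only against siNTC-1. Differences that turned with siNTC-2 were SUCLG2 -0.34, H2AC14 -0.16, NFE2L3 -0.42, TXNIP -2.60, VLDLR -1.02, PLCL2 0.0415, ETV5 -0.60, SPRY4 -0.86, GINS2 0.29, MCM5 0.33, GLI1 -0.37, GLI3 0.0250, MIR15A 0.71, NID1 -0.40, THBS2 0.46, RPPH1 -0.94 and UHRF1 0.0918. With the mean of both they were TXNIP -0.71, VLDLR -0.0610, ETV5 -0.0861, SPRY4 -0.13, MCM5 0.0252, MIR15A 0.11 and RPPH1 -0.25. Some named genes not called against siNTC-1 passed the threshold with siNTC-2. They were DNMT3A, DNMT3B, ATF4, CDH1, FGFR1, GLI1, MIR15B, MTF1, SALL4 and MAEL. Those that passed with the mean of both were DNMT3B, ATF4, CDH1, FGFR1, LIN28A, MTF1, SALL4 and MAEL. SALL4 and LIN28A also passed without the dim genes and under another variance model. Array weights gave 1933 genes against siNTC-1, 1320 against siDNMT1, 3205 for 3A+3B+3L against 3A+3B, 932 for the interaction with DNMT3A siRNA and 127 apart from both single depletions. Models of only the groups compared have few degrees of freedom and gave 569 genes against siNTC-1, 144 against siDNMT1, 181 against siDNMT3B, 608 for 3A+3L against siDNMT3A, and 263 and 889 for the interactions. A model of the 4 groups siDNMT3L, siDNMT1, siDNMT3B and siNTC-1 gave 1240, 461, 404 and, apart from both, 41. Leaving out 1 array gave 2417 to 3003 genes against siNTC-1 (271 to 317 by 1.5-fold), 1324 to 1695 against siDNMT1, 1217 to 1381 against siDNMT3B, 658 to 1589 and 865 to 884 for the combinations, 948 to 1493 and 1304 to 2102 for the interactions, 146 to 262 apart from both single depletions and 233 to 338 shared with both combinations. A group left with 1 array was assumed to vary like the others. The cause of these shifts was not tested. Other settings kept the count against siNTC-1 between 3467 and 3946.

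The replicate number as a block gave 3467 genes and changed 1 named call, that of MT2A. With the numbers of siDNMT3L exchanged the block gave 3601. The numbers do not pair the samples by any label.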

Other observations

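Genes of glycolysis and the hypoxia response were higher more often than lower in siDNMT3L against siNTC-1. Of 28, 7 were higher (25%) and 1 lower (3.57%), against 9.32% and 9.86% over all genes, with a median log2 difference of 0.11. AK4, a mitochondrial adenylate kinase, rose by 0.85, and LDHA, which converts pyruvate to lactate, rose by 0.55. Nodal, Activin and BMP signalling had 6 higher (21.4%) and 3 lower (10.7%) of 28. Counts for the remaining lists are to be read against 19.2% called over all genes. Of 19 guanylate cyclase and cyclic nucleotide genes 4 were higher and 3 lower (36.8% called), and of 21 endoplasmic reticulum chaperones 2 were higher and 1 lower. Of 24 chromatin silencers 0 were higher and 4 lower, of 22 cytosolic ribosomal proteins 0 and 3, and of 22 p53 targets 1 and 3. Of 57 replication-dependent histone genes 4 were higher and 4 lower.

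By RefSeq gene type, 11 of 20 small nuclear RNA genes were higher (55%) and 0 lower, with near-identical copies among them. Of 632 long non-coding RNA genes 14 were higher (2.22%) and 42 lower (6.65%), both below the shares over all genes (9.32% and 9.86%). Gene types were not matched for mean level, on which calls depended. Protein-coding genes had 1627 higher (9.63%) and 1712 lower (10.1%) of 16902.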
